A study of Mus musculus with 22 samples.

Results

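Txnip and 7 genes tied to it by glucose sensing or redox control were followed in islet RNA from mice with a normal or an altered MAFA, the beta-cell factor that activates the insulin genes. The other 7 were Arrdc4, Arrdc3, Mlxipl, Mlx, Pklr, Txn1 and Txnrd1. The 8 genes were taken by symbol, each had 1 entry among the 57010 gene IDs of the table, and all 8 passed the filter on low values that left 16756 genes for testing. Txnip was chosen because it had been seen to differ between genotypes in opposite directions on the 2 backgrounds, so its levels and differences are a description and carry no test. The other 7 were also chosen with earlier results of these data known, and their p-values were adjusted over all genes tested.

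The islets came from 22 male mice, 1 mouse per library. Their age is given as 5.5 weeks in the design text and as 5 to 6 weeks in the headers of the table, for every group. Mice were wild type for MafA (WT) or heterozygous for its S64F change (Het), on a background labelled C57 or on one labelled Mixed, whose strains are not stated. On each background there were 5 WT and 6 Het mice, numbered within each group in the order of the libraries. The library numbers ran through the groups one after another, so library order and group cannot be told apart. Ins1 and Ins2 together took 39.3% of TPM on average in C57 WT and 39.9% in Mixed WT, against 31.6% and 27.4% in the Het groups of C57 and Mixed, so these defining islet genes were abundant in every group. How the allele was made is not given in the sources used here.

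TXNIP, thioredoxin-interacting protein, is an alpha-arrestin that binds reduced thioredoxin and lowers glucose uptake, and in beta cells its mRNA is among the transcripts that glucose raises most. That response runs through ChREBP, the product of Mlxipl, which pairs with MLX and binds carbohydrate response elements in the promoters of Txnip, Arrdc4, Pklr and other genes. Txn1 encodes cytosolic thioredoxin, the protein that TXNIP binds, and Txnrd1 the reductase that recharges it.

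The promoters of the 4 genes that carry the results on ChREBP are shown first, because Txnip and Arrdc4 were both lowest in Mixed WT islets while Mlxipl and Pklr fell on both backgrounds. The sequences are the 250 bases before an annotated start site, read 5′ to 3′ on the strand of the gene, from RefSeq on GRCm38.p6. That build is not the mm39 of the submitters' processing notes, and the coordinates apply to GRCm38.p6 alone. Capitals mark matches, on either strand, to the E-box CACGTG, to the CCAAT box (whose letters read ATTGG on the other strand), or to a pair of E-box-like hexamers 5 bases apart. Txnip lies at chr3:96557707-96557956 on the + strand, Arrdc4 at chr7:68749239-68749488 on the − strand, Mlxipl at chr5:135089640-135089889 on the + strand and Pklr at chr3:89136373-89136622 on the + strand. Mlxipl and Pklr each had another annotated start site, with windows at chr5:135106641-135106890 and chr3:89135892-89136141. Those windows held no match and are not printed.
Txnip: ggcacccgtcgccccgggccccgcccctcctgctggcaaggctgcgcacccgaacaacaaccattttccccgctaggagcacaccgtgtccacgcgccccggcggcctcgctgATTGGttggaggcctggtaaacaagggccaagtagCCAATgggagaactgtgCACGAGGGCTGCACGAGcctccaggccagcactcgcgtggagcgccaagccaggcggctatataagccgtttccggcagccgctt
Arrdc4: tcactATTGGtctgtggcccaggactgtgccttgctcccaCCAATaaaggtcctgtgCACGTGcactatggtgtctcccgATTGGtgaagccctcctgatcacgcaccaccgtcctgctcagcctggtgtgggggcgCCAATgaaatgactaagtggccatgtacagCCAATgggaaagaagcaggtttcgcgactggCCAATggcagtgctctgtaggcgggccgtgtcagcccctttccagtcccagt
Mlxipl: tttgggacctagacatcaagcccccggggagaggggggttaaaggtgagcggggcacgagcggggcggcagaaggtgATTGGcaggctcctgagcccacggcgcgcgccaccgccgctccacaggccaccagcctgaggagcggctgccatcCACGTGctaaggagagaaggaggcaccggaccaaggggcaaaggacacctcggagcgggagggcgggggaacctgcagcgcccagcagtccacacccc
Pklr: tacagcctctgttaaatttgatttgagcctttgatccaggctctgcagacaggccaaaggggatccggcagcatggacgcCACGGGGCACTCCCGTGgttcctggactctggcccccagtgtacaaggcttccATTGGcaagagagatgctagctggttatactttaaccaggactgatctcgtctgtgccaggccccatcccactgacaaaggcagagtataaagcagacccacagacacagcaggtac

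Promoter windows of 300 bases, 250 before and 50 after the start site, were found for all 8 genes, 14 windows in all. CACGTG, the E-box that MLX and ChREBP dimers and other factors of their class bind, stood 193 bases before the start of Arrdc4 and 40 before that of Mlx. In Mlxipl it stood 98 bases before the start site of the printed window and was absent from the other window. CACGTG was in 3 of the 14 windows and in 7.15% of the 32851 RefSeq windows. The paired motif searched for the carbohydrate response element was CANGNG, 5 bases, then CNCNTG. Its match in Pklr began 170 bases before the start site of the printed window, the other Pklr window had none, and 0.557% of all windows had one. In Txnip a tandem pair, CACGAG, 5 bases, then CACGAG, began 85 bases before the start. This pair was searched for after the sequence had been seen, and Txnip's was the 1 window of the 32851 that held it. CCAAT was found in 8 of the 14 windows, which belonged to 7 of the 8 genes, and in 37.4% of all windows. Among these were 2 overlapping Arrdc3 windows that share 1 CCAAT. Arrdc4 had 6 matches and Txnip 2. A match is a stretch of letters, and binding was not measured.

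Txnip (ENSMUSG00000038393) was the most abundant of the 8 genes, with a mean of 863 TPM over all mice, the 52nd highest level in the table. TPM, a level per transcript length and library total, corrects for gene length and scales every library to the same total. In C57 WT islets mice 1 to 5 had 1859, 901, 913, 924 and 1424 TPM. In C57 Het islets the lowest level was 671, the median 796 and the highest 965 TPM. Mice 1 and 5 of C57 WT stood above all the others, while the remaining 3 WT mice lay inside the range of the Het mice, so the C57 groups overlapped. In Mixed WT islets the levels were 641, 400, 353, 469 and 525 TPM. In Mixed Het islets they ran from 703 through a median of 994 to 1127 TPM, above every Mixed WT mouse.

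The Txnip means were 1204 ± 428 TPM (SD, n = 5) in WT and 810 ± 116 (n = 6) in Het islets on C57. On Mixed they were 478 ± 113 (n = 5) and 951 ± 176 (n = 6). Het islets therefore held 67.3% of the WT mean on C57 and 199% of it on Mixed. On the log2(TPM + 1) scale, on which all differences are given, Het minus WT was -0.52 (SE 0.19) on C57 and 1.0 (SE 0.19) on Mixed. Leaving out C57 WT mouse 1 brought the C57 difference to -0.34. The gap between these differences, the interaction, was 1.52 (SE 0.26). From the side of background, Mixed WT held 39.7% of the C57 WT level, with no overlap, and Mixed Het 117% of the C57 Het level, with overlap. In order of means the groups ran C57 WT, Mixed Het, C57 Het and Mixed WT. The upper 3 were neighbours whose mice overlapped, and Mixed WT lay apart below all of them.

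**Figure D1:**
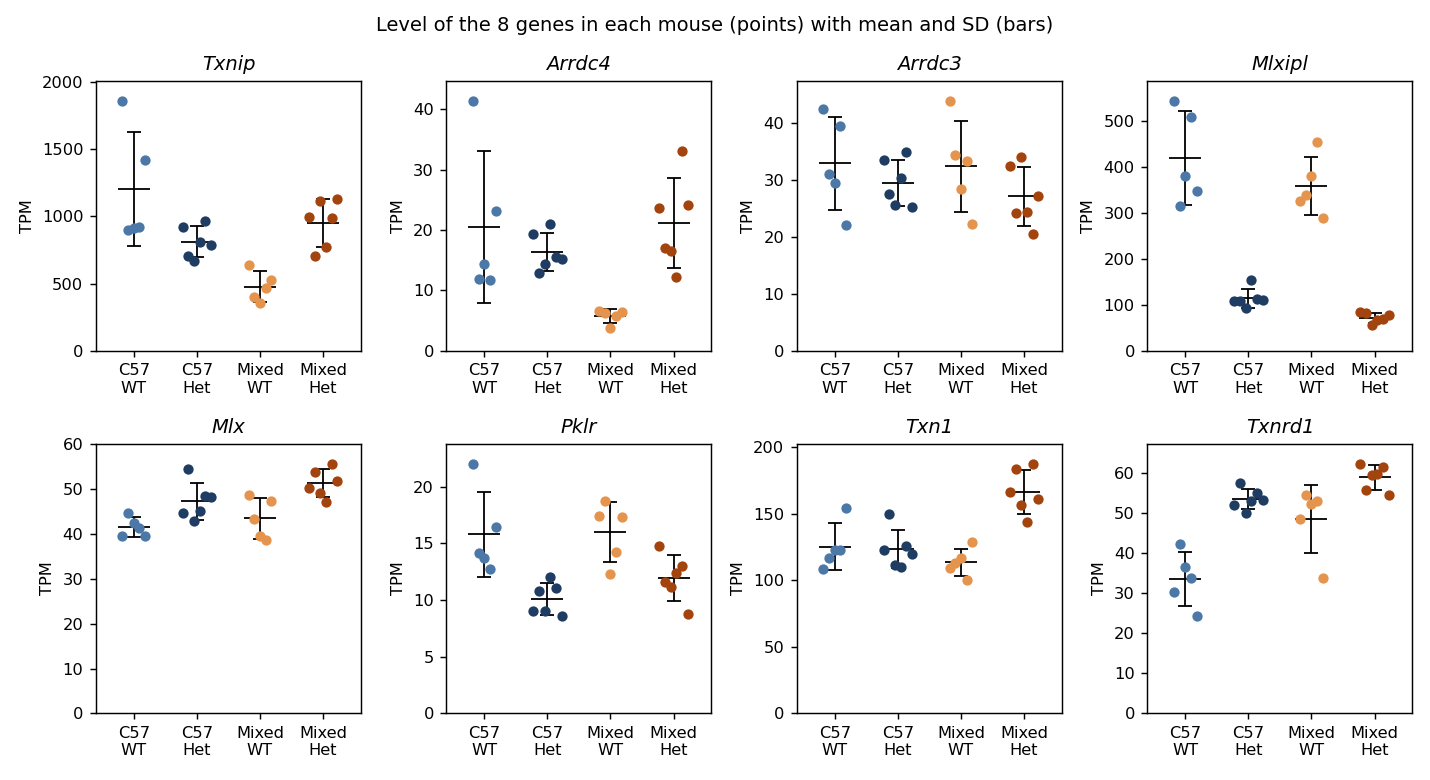
Level of each gene in TPM on the y axis for every mouse (points), by genotype and background, with the group mean and SD as bars. Txnip and Arrdc4 are lowest in Mixed WT, at 353 to 641 and 3.84 to 6.65 TPM, and Mlxipl is low in Het islets on both backgrounds, at 55.0 to 154 TPM.

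Arrdc4 (ENSMUSG00000042659), the alpha-arrestin closest to Txnip in sequence and likewise raised by glucose, was likewise lowest in Mixed WT. Mice 1 to 5 of C57 WT had 41.4, 11.8, 14.4, 11.6 and 23.1 TPM. In C57 Het the lowest, median and highest levels were 12.9, 15.3 and 21.1 TPM. The same 2 C57 WT mice, 1 and 5, were the highest of their background, and the groups overlapped. Mixed WT mice had 6.65, 6.25, 3.84, 5.73 and 6.49 TPM. Mixed Het mice had 12.2, 20.3 and 33.1 TPM as lowest, median and highest. No Mixed WT mouse reached any mouse of the other groups.

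The group means of Arrdc4 were 20.5 ± 12.6 TPM in WT and 16.4 ± 3.12 in Het islets on C57, and 5.79 ± 1.14 and 21.1 ± 7.46 TPM on Mixed. On Mixed, Arrdc4 rose 3.65-fold in Het islets (log2 difference 1.65, SE 0.26, limma adjusted p = 3.55e-05). On C57 the difference of -0.16 (95% interval -0.70 to 0.39) did not pass (adjusted p = 0.676), and it was 0.13 without C57 WT mouse 1. The interaction of 1.81 (SE 0.37) passed with an adjusted p of 0.00716. In WT islets Arrdc4 was lower on Mixed than on C57 by a log2 difference of -1.51 (SE 0.28, adjusted p = 0.00101), and in Het islets the backgrounds differed by 0.30 (95% interval -0.22 to 0.82, adjusted p = 0.446).

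Other measures of the same libraries also set C57 WT mice 1 and 5 apart. The mitochondrially encoded share of TPM exceeded 8% in C57 WT mice 1 and 5 (8.09% and 9.76%) and in Mixed WT mouse 4 (9.76%), against 2.80% to 6.03% in the other 19 mice. Mixed WT mouse 4 lay inside the range of its group for Txnip (469 TPM) and Arrdc4 (5.73 TPM). The mean share was higher in WT than in Het mice on C57 (6.58% and 4.12%) and on Mixed (6.04% and 3.24%). The summed TPM of 6 endothelial markers was 508 and 744 in C57 WT mice 1 and 5 and 301 to 360 in the other 3 mice of that group. Without the 3 libraries over 8%, a choice made after seeing the data, Txnip differed by -0.18 (SE 0.17) on C57, 1.0 on Mixed and 1.19 in the interaction. Arrdc4 then differed by 0.34 on C57 (adjusted p = 0.311), a changed sign, by 1.66 on Mixed and by 1.32 in the interaction (adjusted p = 0.0297). Its difference between backgrounds in WT was then -1.02 (adjusted p = 0.0199).

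The summed TPM of 9 immune markers followed the genotype difference of Txnip on each background. On C57 it ran from 327 to 413 in WT and from 215 to 299 in Het mice, and on Mixed from 200 to 272 and from 303 to 604. Of the 8 immune markers tested, 2 fell and 0 rose on C57, 7 rose and 0 fell on Mixed, and 6 had a positive interaction that passed (2 without the 3 libraries over 8% mitochondrial). Of all genes tested, 11.6% fell and 26.4% rose on C57, and 30.7% rose and 13.5% fell on Mixed. A positive interaction passed for 4.62% of all genes, 774 as fitted and 235 without the 3 libraries. Ptprc, the pan-leukocyte marker, ranged from 0.273 to 1.05 TPM over the libraries and did not pass the filter, and none of the 9 was at 0 in any library. Of 8 mesenchymal markers, 5 rose on Mixed and 1 fell on C57, with summed levels on Mixed of 138 to 209 TPM in WT and 132 to 559 in Het mice and on C57 of 142 to 291 and 123 to 165. The part of these cells in the Txnip and Arrdc4 levels was not tested. In whole islets, fewer cells of a type and less RNA per cell cannot be told apart.

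**Figure D2:**
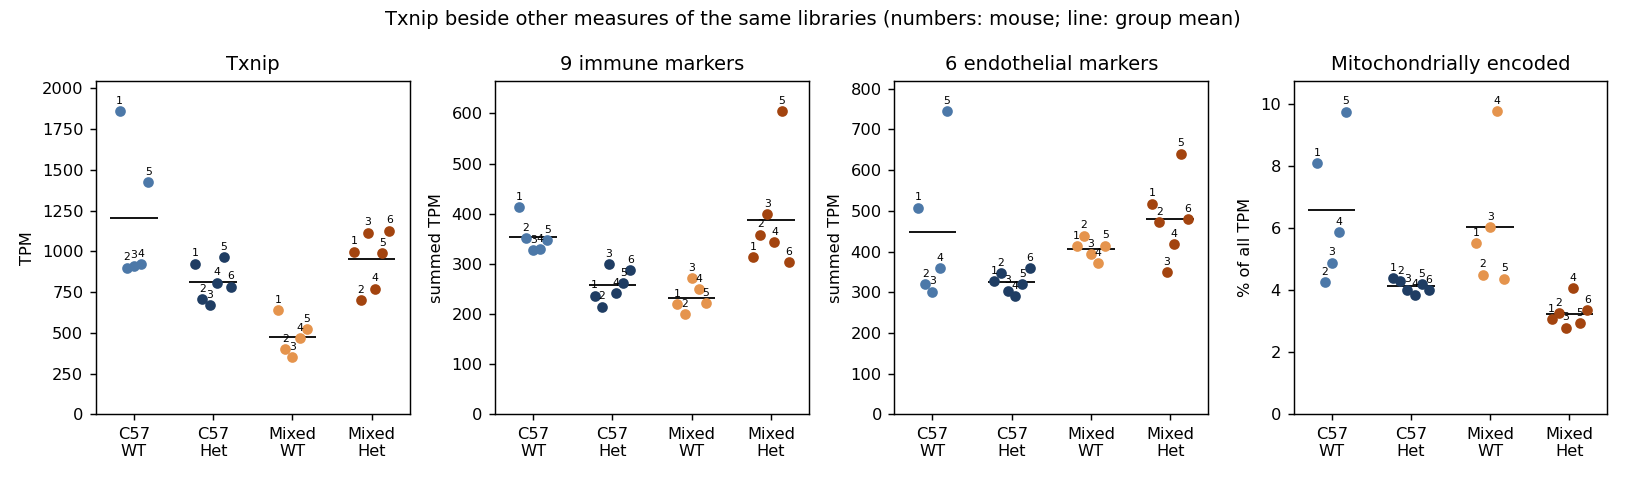
Txnip in TPM, the summed TPM of 9 immune and of 6 endothelial markers, and the mitochondrially encoded percent of all TPM, for every mouse (points, numbered within the group) with the group mean as a line. C57 WT mice 1 and 5 are high for Txnip, endothelial markers and the mitochondrial share, and the immune sum is lower in Het than in WT on C57 and higher on Mixed.

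Arrdc3 (ENSMUSG00000074794), a further alpha-arrestin, showed neither the Txnip nor the Mlxipl pattern. C57 WT mice had 42.4, 31.0, 29.4, 39.5 and 22.1 TPM and Mixed WT mice 43.8, 34.3, 28.3, 33.3 and 22.2 TPM. Het mice had 25.2, 28.9 and 34.9 TPM on C57 and 20.4, 25.7 and 34.0 TPM on Mixed as lowest, median and highest. All 4 groups overlapped, and the differences of -0.13 on C57 (95% interval -0.47 to 0.22, limma adjusted p = 0.576) and -0.24 on Mixed (-0.58 to 0.11, adjusted p = 0.256) did not pass. The Mixed difference did pass with median-of-ratios scaling, at -0.37 (adjusted p = 0.0405).

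Mlxipl (ENSMUSG00000005373), which encodes ChREBP, had the largest genotype difference of the 8 genes, and it fell on both backgrounds. C57 WT mice had 544, 315, 381, 510 and 349 TPM. C57 Het mice had 92.1, 110 and 154 TPM as lowest, median and highest. Mixed WT mice had 326, 339, 381, 454 and 289 TPM, and Mixed Het mice 55.0, 73.0 and 83.6 TPM as lowest, median and highest. WT and Het were separated on each background by a wide gap, and the lowest WT mouse of all stood at 289 TPM against 154 TPM for the highest Het mouse.

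Mlxipl in Het islets was 27.2% of the WT mean on C57 (420 ± 101 against 114 ± 20.9 TPM, log2 difference -1.85, SE 0.15, limma adjusted p = 1.6e-08). On Mixed it was 20.1% (358 ± 63.1 against 72.0 ± 10.9 TPM, difference -2.30, SE 0.15, adjusted p = 3.41e-10). The interaction of -0.44 (SE 0.21) did not pass (adjusted p = 0.193). In Het islets Mlxipl was lower on Mixed than on C57 with no overlap (-0.65, SE 0.14, adjusted p = 0.00266), and in WT the difference of -0.21 did not pass (adjusted p = 0.412). The table gives 1 value per gene, so transcripts from alternative Mlxipl start sites were not separated. Mafa itself (ENSMUSG00000047591) fell too, from 441 to 117 TPM on C57 and from 598 to 152 TPM on Mixed (log2 differences -1.91 and -1.98, limma adjusted p = 1.14e-07 and 3.44e-08), and the mRNA of the 2 alleles was likewise not separated.

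The fall of Mlxipl and the levels of Txnip gave a ratio that shifted in the same direction on both backgrounds. Txnip stood at 2.91 ± 0.88 times the TPM of Mlxipl in C57 WT and at 7.22 ± 1.29 times in C57 Het, with ranges of 1.81 to 4.08 and 5.24 to 8.62. On Mixed the ratio was 1.38 ± 0.47 in WT, from 0.925 to 1.97, and 13.6 ± 3.92 in Het, from 8.66 to 20.3. No Het mouse overlapped the WT mice of its background in this ratio. Mlxipl, which the ratio divides by, was itself separated on each background, so this separation is not a result apart from the fall of Mlxipl. Since the ratio holds Txnip, which was chosen on these contrasts, it is a description.

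MLX, the obligate partner of ChREBP, changed little. Mlx (ENSMUSG00000017801) stood at 39.6, 44.7, 42.5, 41.4 and 39.5 TPM in C57 WT and at 48.8, 43.4, 39.5, 38.5 and 47.2 TPM in Mixed WT. Het mice had 42.9, 46.7 and 54.6 TPM on C57 and 47.1, 51.1 and 55.7 TPM on Mixed as lowest, median and highest. The groups overlapped on each background. The differences of 0.18 on C57 (limma adjusted p = 0.049) and 0.24 on Mixed (adjusted p = 0.0102) passed as deposited. With median-of-ratios scaling they were 0.07 (adjusted p = 0.496) and 0.10 (adjusted p = 0.241), so these calls depended on how the libraries were scaled. The C57 call was also lost without the 3 libraries over 8% mitochondrial (0.14, adjusted p = 0.227) and without several single mice, most so without C57 Het mouse 2 (adjusted p = 0.127).

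Pklr (ENSMUSG00000041237), the liver-type pyruvate kinase and a classical ChREBP target, fell on both backgrounds. C57 WT mice had 22.03, 14.1, 13.7, 12.7 and 16.5 TPM. C57 Het mice had 8.60, 9.92 and 12.0 TPM as lowest, median and highest, all below the WT mice. Mixed WT mice had 17.4, 18.8, 12.3, 14.3 and 17.3 TPM and Mixed Het mice 8.80, 12.0 and 14.8 TPM, with overlap at the edges of the ranges.

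Pklr in Het islets was 63.8% of the WT mean on C57 (log2 difference -0.58, SE 0.14, limma adjusted p = 0.00232) and 74.6% on Mixed (-0.39, SE 0.14, adjusted p = 0.0238). The interaction was 0.19 (95% interval -0.21 to 0.59, adjusted p = 0.567). On Mixed the call was lost without WT mouse 1, 2 or 5 or Het mouse 6, where the adjusted p ran from 0.0523 to 0.068. Without the 3 libraries over 8% mitochondrial, Pklr differed by -0.40 on C57 (adjusted p = 0.0465) and -0.43 on Mixed (adjusted p = 0.0108).

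Txn1 (ENSMUSG00000028367), the thioredoxin that TXNIP binds, rose on Mixed and not detectably on C57. C57 WT mice had 108, 117, 123, 123 and 154 TPM and C57 Het mice 110, 121 and 149 TPM as lowest, median and highest. Mixed WT mice had 109, 113, 116, 100 and 128 TPM, and Mixed Het mice 143, 163 and 187 TPM. The C57 groups covered nearly the same range, while every Mixed Het mouse was above every Mixed WT mouse.

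Txn1 in Mixed Het islets was 147% of the WT mean (log2 difference 0.55, SE 0.09, limma adjusted p = 7.84e-05). On C57 the difference was -0.02 (95% interval -0.21 to 0.17, adjusted p = 0.89), and the interaction of 0.57 (SE 0.13) passed with an adjusted p of 0.0146. Without the 3 libraries over 8% mitochondrial the interaction was 0.48 (adjusted p = 0.0449). The backgrounds differed in Het islets, by 0.43 (adjusted p = 0.0017), and not detectably in WT (-0.14, 95% interval -0.34 to 0.07, adjusted p = 0.404). The ratio of Txnip to Txn1 was 9.81 ± 4.19 in WT and 6.65 ± 1.13 in Het mice on C57 and 4.24 ± 1.09 and 5.77 ± 1.23 on Mixed, and WT and Het mice overlapped on each background.

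Txnrd1 (ENSMUSG00000020250), the cytosolic thioredoxin reductase, rose on C57, and its smaller difference on Mixed passed less firmly. C57 WT mice had 30.5, 42.4, 36.6, 33.8 and 24.4 TPM, all below the C57 Het mice at 50.1, 53.3 and 57.6 TPM as lowest, median and highest. Mixed WT mice had 48.7, 54.7, 52.3, 53.1 and 33.9 TPM, with mouse 5 low, and Mixed Het mice 54.6, 59.8 and 62.4 TPM. The Mixed groups met at 54.7 TPM, where the highest WT mouse stood just above the lowest Het mouse.

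On C57 the Txnrd1 difference was 0.68 (SE 0.11, limma adjusted p = 0.000125), 160% of the WT mean. On Mixed it was 0.30 (SE 0.11, adjusted p = 0.0411), a call lost with median-of-ratios scaling (0.16, adjusted p = 0.237) and without Mixed WT mouse 5 (0.17, adjusted p = 0.16). It was also lost without Mixed WT mouse 1 or Het mouse 1, 3, 4 or 5 (adjusted p from 0.0571 to 0.0712). The interaction of -0.39 did not pass (adjusted p = 0.136), but passed without Mixed WT mouse 5, at -0.51 (adjusted p = 0.0228). WT islets held more Txnrd1 on Mixed than on C57 (0.52, SE 0.12, adjusted p = 0.00638), a call that was lost without the 3 libraries over 8% mitochondrial (0.31, adjusted p = 0.154).

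Over the 7 genes other than Txnip, 4 passed on C57, 2 higher (Mlx, Txnrd1) and 2 lower (Mlxipl, Pklr), where 38.0% of all genes tested passed, 26.4% higher and 11.6% lower. On Mixed 6 passed, 4 higher (Arrdc4, Mlx, Txn1, Txnrd1) and 2 lower (Mlxipl, Pklr), where 44.1% of all genes passed, 30.7% higher and 13.5% lower. Under median-of-ratios scaling 3 passed on C57 and 5 on Mixed, where 6593 and 7413 of all 16756 genes passed. On Mixed that scaling lost Mlx and Txnrd1 and gained Arrdc3. With quantile normalization 3 and 4 passed, where 6555 and 7559 of all genes passed. With totals that leave out 13 abundant genes 3 and 4 also passed, where 6376 and 7149 of all genes passed. The 4 on Mixed were Arrdc4, Mlxipl, Pklr and Txn1 each time. Without the 3 libraries over 8% mitochondrial 3 and 6 passed, where 3835 and 7087 of 16451 genes passed. The groups did not overlap for 3 of the 7 on C57 and 3 on Mixed, against 21.0% and 23.6% of all genes. The interaction passed for 2 (Arrdc4 and Txn1), where 7.36% of all genes passed, 4.62% higher and 2.74% lower. Between backgrounds 2 of the 7 passed in WT (Arrdc4 and Txnrd1) and 2 in Het (Mlxipl and Txn1), where 11.3% and 20.5% of all genes passed. The groups did not overlap for 1 of the 7 in WT and 1 in Het, against 6.12% and 9.85% of all genes. Over all genes the split of higher against lower calls depended on scaling: it was 4422 to 1940 on C57 and 5137 to 2258 on Mixed as deposited, and 3293 to 3300 and 3663 to 3750 with median-of-ratios scaling. For the interaction it was 774 to 459 and 776 to 973, and between backgrounds in Het 2234 to 1194 and 2101 to 1868. The 2 genotype comparisons do not share samples, while the background comparisons reuse the same 4 groups.

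**Figure D3:**
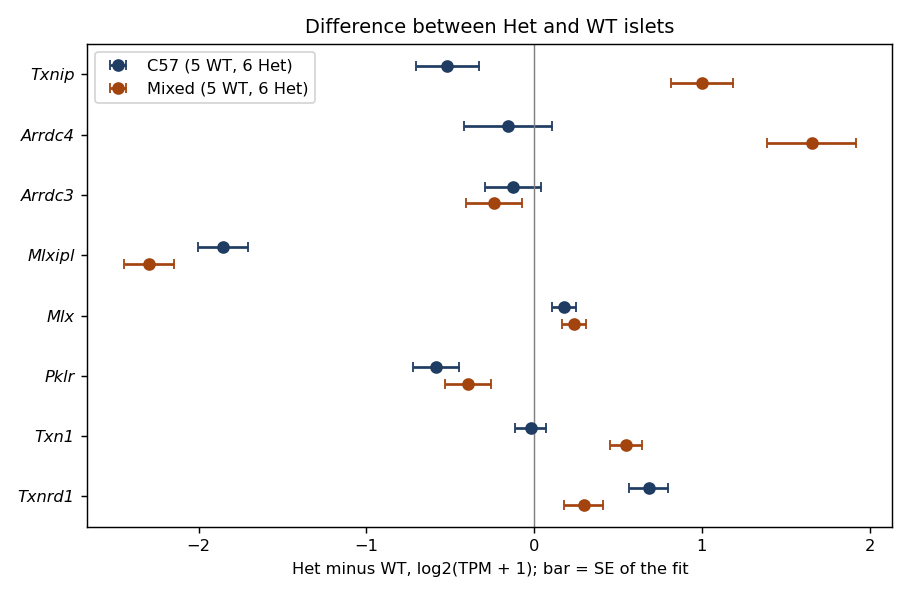
Het minus WT on the log2(TPM + 1) scale for the 8 genes on C57 (5 WT, 6 Het mice) and Mixed (5 WT, 6 Het mice), with the SE of the fit as bars. Txnip lies at -0.52 on C57 and 1.0 on Mixed and Arrdc4 at -0.16 and 1.65, while Mlxipl and Pklr are below 0 on both backgrounds.

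Variation between mice of the same group, which genotype and background do not fix, linked Txnip to Arrdc4. With the group means removed, Arrdc4 followed Txnip over the 22 mice with a Pearson r of 0.77 (permutation p = 0.00084 within groups, two-sided, 0.00588 adjusted over the 7 genes) and a Spearman rho of 0.75 (p = 0.00149, adjusted 0.0104). Without the 2 mice farthest from the median of Txnip, C57 WT mouse 1 and Mixed WT mouse 1, r was 0.67 (permutation p = 0.00717, adjusted 0.0502). Without the 3 libraries over 8% mitochondrial it was 0.56 (adjusted permutation p = 0.29), so past the threshold the relation rests on those libraries. Within each of the Het groups of 6 mice, r was 0.52 on C57 and 0.53 on Mixed. In the WT groups of 5 mice it was higher, 0.98 on C57 and 0.76 on Mixed.

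None of the other 6 passed. The Pearson r with Txnip was 0.46 for Pklr (permutation p = 0.0693, adjusted 0.242), 0.34 for Arrdc3, 0.08 for Mlxipl, 0.04 for Mlx, -0.03 for Txn1 and -0.45 for Txnrd1, with adjusted permutation p from 0.242 to 0.902. The Spearman rho ran from -0.49 for Txnrd1 to 0.42 for Pklr, with adjusted permutation p from 0.182 to 0.986. Pklr did pass without Mixed Het mouse 6, at r = 0.62 (adjusted permutation p = 0.0434). A relation of Txnip to the mRNA of ChREBP was not detectable over these mice.

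**Figure D4:**
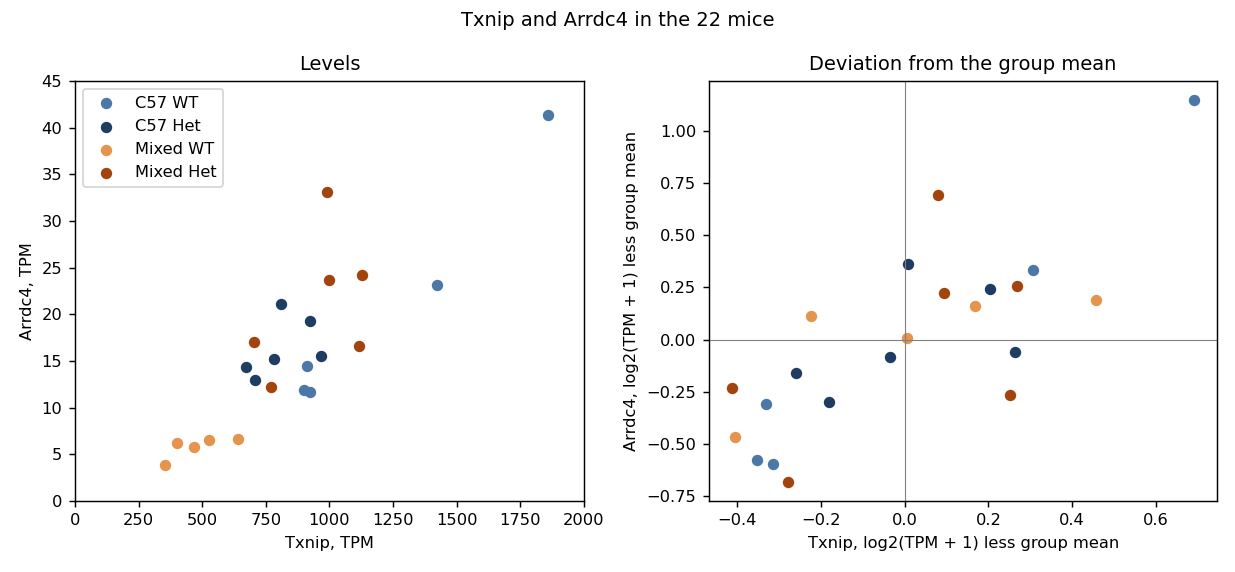
Txnip against Arrdc4 in the 22 mice, as TPM (left) and as deviations of log2(TPM + 1) from the group mean (right), with 1 point per mouse colored by group. Mixed WT mice form the lower left of the left panel, C57 WT mouse 1 is the highest in both genes, and r of the deviations is 0.77.

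Over 9856 genes with a mean of at least 5 TPM and a regular symbol, the 5 whose deviations were most like those of Txnip were Zfp950 (r = 0.81), Rgs16 (0.80), Cars2 (0.78), Arrdc4 (0.77) and Tpcn2 (0.75). The median r over these genes was 0.05 and the 90th percentile 0.42. Arrdc4 was therefore the 4th most similar gene. The most opposite were Taf13 (-0.80), Mocs3 (-0.78), Sub1, Akirin1 and Get3 (-0.71 each). These values describe the 22 libraries, which share depth and composition with every gene compared, and carry no test.

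The wider set of ChREBP targets had members that rose and members that fell on each background. Leaving out the 4 of the 8 genes that the list holds, 26 targets were tested, of which 7 rose and 6 fell on C57 and 9 rose and 5 fell on Mixed. As shares, 26.9% rose and 23.1% fell on C57, against 26.4% and 11.6% of all genes, and 34.6% rose and 19.2% fell on Mixed, against 30.7% and 13.5%. The share that rose was thus near that of all genes on each background. The median difference was 0.14 on C57 and 0.15 on Mixed, against 0.08 and 0.10 over all genes. With median-of-ratios scaling, 5 rose and 6 fell on C57 and 8 rose and 10 fell on Mixed. Under that scaling the median of all genes was -0.01 on each background. Of all 16756 genes, 3293 then rose and 3300 fell on C57, and 3663 rose and 3750 fell on Mixed. The interaction passed for 4 upward and 2 downward (15.4% and 7.69%, against 4.62% and 2.74% of all genes). It passed for 2 and 1 without the 3 libraries over 8% mitochondrial, where the counts over all genes went from 774 and 459 to 235 and 178.

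Rgs16, a regulator of G-protein signalling that glucose induces in beta cells, fell on both backgrounds, and less on Mixed. It went from 164 ± 82.6 to 27.5 ± 4.69 TPM on C57 (log2 difference -2.42, limma adjusted p = 2.36e-06) and from 84.4 ± 16.7 to 50.5 ± 17.6 TPM on Mixed (-0.81, adjusted p = 0.0261). The gap between the backgrounds was 1.61 (adjusted p = 0.0224). Klf10, a glucose-induced repressor, fell by 0.97 and 0.84 on the log2 scale. Me1, the malic enzyme that supplies NADPH for lipid synthesis, rose instead, from 8.49 to 19.3 TPM on C57 and from 10.4 to 23.4 TPM on Mixed, a difference of 1.1 and 1.12. Thrsp, a lipogenic protein that glucose and ChREBP raise in liver, had an interaction of 1.04 (adjusted p = 0.0402), with -0.57 on C57 and 0.47 on Mixed, of which the first passed (adjusted p = 0.0388) and the second did not (adjusted p = 0.082).

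In glycolysis, 25 genes other than Pklr were tested. On C57 4 rose and 2 fell (16% and 8%, against 26.4% and 11.6% of all genes). On Mixed 14 rose and 6 fell (56% and 24%, against 30.7% and 13.5% of all genes). The median difference was 0.14 on C57 and 0.41 on Mixed, the latter 0.28 with median-of-ratios scaling, under which 12 rose and 7 fell. On C57 that scaling gave 2 up and 4 down. Over all 16756 genes it gave 3293 up and 3300 down on C57 and 3663 up and 3750 down on Mixed. The interaction passed for 5 upward and 1 downward (20% and 4%, against 4.62% and 2.74% of all genes). It passed for 2 and 1 without the 3 libraries over 8% mitochondrial, where the counts over all genes went from 774 and 459 to 235 and 178. Among those that rose on Mixed were Pgk1, phosphoglycerate kinase (0.52 on C57 and 0.84 on Mixed), and Eno1, the general enolase (0.24 and 0.90, interaction 0.66, adjusted p = 0.0266). The C57 difference of Eno1 did not pass. Pgam1, phosphoglycerate mutase, rose by 0.55 on C57 and 0.42 on Mixed. The interaction also passed for Pfkfb3 (0.96, adjusted p = 0.0163) and Gapdh (0.47, adjusted p = 0.00559). Without the 3 libraries over 8% mitochondrial, at most 2 of the interactions of Eno1, Pfkfb3 and Gapdh were kept. Among those that fell were Eno3, the muscle enolase that islets express (-0.93 and -1.05), Pfkfb2, which makes the activator of phosphofructokinase (-0.36 and -1.07), and Slc2a2, the beta-cell glucose transporter (0.09 and -0.92). Eno3 passed on both backgrounds, while the C57 differences of Pfkfb2 and Slc2a2 did not pass. Slc2a2 is also a beta-cell marker, and of 9 such markers 1 rose and 2 fell on C57 and 0 rose and 6 fell on Mixed. The interaction of Slc2a2 was -1.01 (adjusted p = 0.0027), and that of Pfkfb2 did not pass at -0.71 (adjusted p = 0.0505).

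Of 23 genes of the thioredoxin, peroxiredoxin and glutathione systems besides Txn1 and Txnrd1, 9 rose and 0 fell on C57 and 13 rose and 1 fell on Mixed. As shares, 39.1% rose on C57, against 26.4% of all genes, of which 11.6% fell. On Mixed 56.5% rose and 4.35% fell, against 30.7% and 13.5% of all genes. The median differences were 0.18 and 0.42, against 0.08 and 0.10 over all genes. With median-of-ratios scaling the counts were 4 up and 2 down on C57 and 13 up and 1 down on Mixed. Over all 16756 genes that scaling gave 3293 up and 3300 down on C57 and 3663 up and 3750 down on Mixed. The interaction passed for 6 of the 23 (26.1%), all higher on Mixed, against 4.62% of all genes upward. It passed for 1 without the 3 libraries over 8% mitochondrial, where the upward count over all genes went from 774 to 235.

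Gpx3, the secreted glutathione peroxidase, reached the highest level of the list. It went from 645 ± 201 to 1270 ± 308 TPM on C57 and from 410 ± 87.4 to 1658 ± 313 TPM on Mixed, with no overlap on either (log2 differences 1.0 and 2.01, interaction 1.02, limma adjusted p = 0.0231). Gpx2, the gastrointestinal form, went from 4.98 to 19.0 TPM on Mixed (1.73) and from 14.2 to 19.0 TPM on C57 (0.36, adjusted p = 0.0609). Its interaction of 1.37 passed and was the largest of the list. Prdx4, the peroxiredoxin of the endoplasmic reticulum, rose by 0.44 on C57 and 1.12 on Mixed (interaction 0.69, adjusted p = 0.00773). Without the 3 libraries of high mitochondrial share, at most 1 of the interactions of Gpx3, Gpx2 and Prdx4 was kept. Gpx1 rose by 0.40 and 0.81, its C57 call being lost with median-of-ratios scaling (0.28, adjusted p = 0.0628), and Srxn1, which repairs oxidised peroxiredoxins, by 0.42 and 0.54. Nnt, the mitochondrial transhydrogenase, had group means of 0.215 to 0.324 TPM and failed the filter in this table. Markers of other cell types rose in the same Het islets as the redox, glycolysis and NRF2 genes. Alpha-cell markers rose for 5 of 5 on each background. Their summed level did not overlap between genotypes, at 19081 to 57470 TPM in WT and 71434 to 117475 in Het mice on C57, and 15850 to 27605 and 65457 to 107306 TPM on Mixed. Delta-cell markers rose for 3 of 3 on each background, with median differences of 0.88 and 1.40 and summed levels of 5538 to 8887 TPM in WT and 10006 to 13913 in Het mice on C57, and 7645 to 15966 and 14667 to 32003 TPM on Mixed. Of 6 ductal markers tested 2 rose on C57 and 5 on Mixed, with sums of 399 to 515 and 422 to 570 TPM on C57 and 359 to 625.1 and 501 to 948 TPM on Mixed. Of 7 acinar markers tested 7 rose on C57 and 1 on Mixed, with sums of 201 to 376 and 249 to 1581 TPM on C57 and 166 to 822 and 596 to 1147 TPM on Mixed. The part of these cells in the redox, glycolysis and NRF2 genes was not tested.

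**Figure D5:**
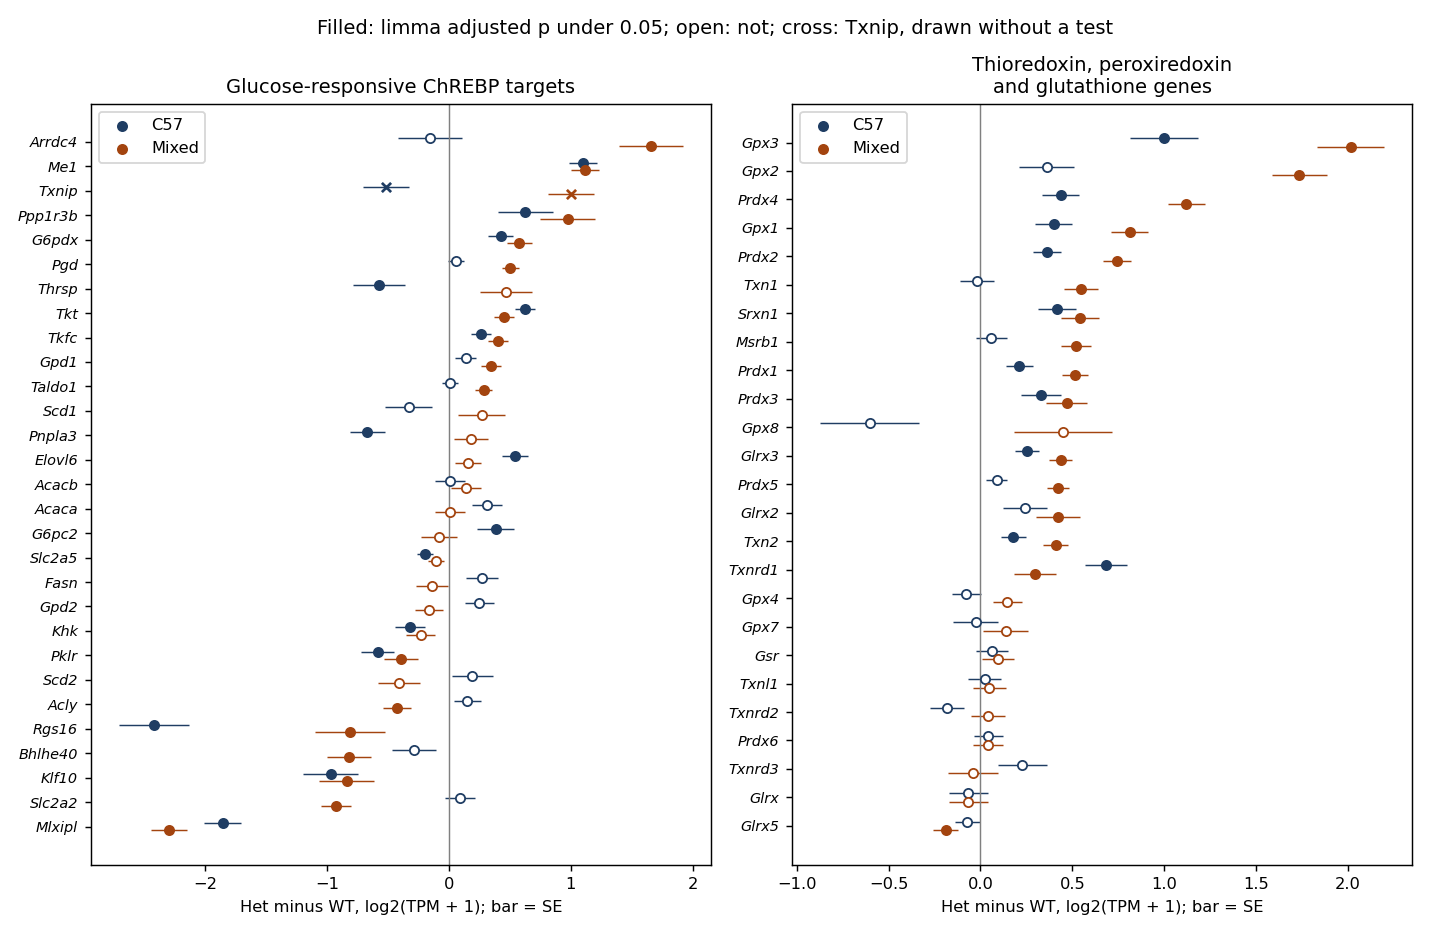
Het minus WT on the log2(TPM + 1) scale with its SE, on C57 and Mixed, for tested ChREBP targets (left, 29 of 30 genes) and thioredoxin, peroxiredoxin and glutathione genes (right, 25 genes), ordered by the Mixed difference. ChREBP targets lie on both sides of 0, from Mlxipl at -2.30 to Arrdc4 at 1.65 on Mixed, while most redox genes lie to the right of 0, up to Gpx3 at 2.01.

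NRF2, a factor that responds to oxidative stress, also drives Txn1 and Txnrd1. Its targets, listed together with Nfe2l2 and Keap1, which encode NRF2 and its regulator, were tested as 15 genes besides those 2. Of these, Prdx1 and Srxn1 are also counted among the redox genes above, and G6pdx among the ChREBP targets. On C57 8 rose and 1 fell (53.3% and 6.67%, against 26.4% and 11.6% of all genes), and on Mixed 8 rose and 2 fell (53.3% and 13.3%, against 30.7% and 13.5%). The median differences were 0.21 and 0.26, against 0.08 and 0.10 over all genes. With median-of-ratios scaling the counts were 5 and 2 on C57 and 6 and 3 on Mixed, beside 3293 and 3300 and 3663 and 3750 of all 16756 genes. Without the 3 libraries over 8% mitochondrial they were 5 and 1 on C57, beside 2844 and 991 of all 16451 genes then tested. Hmox1, heme oxygenase, rose by 0.83 and 0.78, and Nfe2l2, which encodes NRF2, by 0.45 and 0.31. The ferritin light chain Ftl1 fell on Mixed (-1.0, limma adjusted p = 0.000657), with -0.21 on C57, and the heavy chain Fth1 on C57 (-0.35). Gstm1, a glutathione transferase, fell on Mixed by 0.60, and Gsta4, another, rose by 0.56 on each background, a call lost with median-of-ratios scaling (adjusted p = 0.0574 on each). Osgin1 rose on Mixed by 0.62, with -0.31 on C57 and an interaction of 0.93 (adjusted p = 0.0274).

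Other alpha-arrestins and the ubiquitin ligases that act on them were tested as 7 genes, of which 2 rose and 2 fell on C57 and 3 rose and 1 fell on Mixed. The shares that rose, 28.6% and 42.9% of so few genes, stand beside 26.4% and 30.7% of all genes. The shares that fell, 28.6% and 14.3%, stand beside 11.6% and 13.5%. The median differences were 0.13 and 0.01. On Mixed the counts were 1 and 2 with median-of-ratios scaling, beside 3663 and 3750 of all 16756 genes. Nedd4 rose by 0.56 and 0.37, and Itch, the ligase that marks TXNIP for degradation, by 0.49 and 0.28. Nedd4l, a relative of Nedd4, rose by 0.29 on Mixed. The Mixed calls of Itch and Nedd4l were lost with median-of-ratios scaling (0.15 and 0.18). Arrdc2 fell on C57 (-0.57), with -0.26 on Mixed (adjusted p = 0.0512), and the interaction of 0.31 did not pass (adjusted p = 0.199).

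In the network of factors around MLX and MAX, 10 genes besides Mlxipl and Mlx were tested, of which 2 rose on C57 and 1 rose and 2 fell on Mixed. Those that passed made up 20% on C57 and 30% on Mixed, below the 38.0% and 44.1% of all genes, and the median differences were -0.07 and 0.02. With median-of-ratios scaling 1 rose and 2 fell on C57 and 0 rose and 2 fell on Mixed. Of all 16756 genes, 6593 passed on C57 and 7413 on Mixed under that scaling. Max rose by 0.33 and Mxd1 by 0.31 on C57, and the Mxd1 call was lost with median-of-ratios scaling (0.21, adjusted p = 0.157). Mlxip, which encodes MondoA, the close relative of ChREBP, fell on Mixed (-0.48, limma adjusted p = 0.0199) and stood at -0.09 on C57. Mnt, a repressor that pairs with MAX or MLX, fell on Mixed by 0.55, with -0.16 on C57.

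Among 17 genes listed as partners or regulators of TXNIP or otherwise tied to it, 6 rose and 3 fell on C57 and 3 rose and 4 fell on Mixed. These counts include Mafa, the gene altered in the Het mice, which fell on both backgrounds (-1.91 and -1.98). As shares, 35.3% rose and 17.6% fell on C57, against 26.4% and 11.6% of all genes, and 17.6% rose and 23.5% fell on Mixed, against 30.7% and 13.5%. The median differences were 0.10 and -0.02. With median-of-ratios scaling the counts were 6 and 5 on C57 and 2 and 6 on Mixed, beside 3293 and 3300 and 3663 and 3750 of all 16756 genes. Without the 3 libraries over 8% mitochondrial they were 3 and 2 on C57, beside 2844 and 991 of all 16451 genes then tested. Prkaa2, a catalytic subunit of AMPK, the kinase that promotes TXNIP turnover, rose from 2.16 to 6.91 TPM on C57 (1.33) and from 2.61 to 5.51 TPM on Mixed (0.86). Map3k5, the stress kinase ASK1 that thioredoxin holds inactive, rose by 0.64 and 0.39. Nlrp3, the inflammasome sensor, fell on Mixed by 0.59, from 1.704 to 0.735 TPM, and Ddit4 fell on C57 by 0.62. Nr3c1, the glucocorticoid receptor, was the 1 gene of this list with an interaction that passed (-0.54, limma adjusted p = 0.0339), with 0.52 on C57 and -0.02 on Mixed.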

How the data were processed

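RNA from isolated islets was enriched for poly(A), made into NEBNext Ultra II libraries and sequenced in 150-base pairs on a NovaSeq, per the labels' protocols. The authors deposited TPM for each gene and library. The submitters' processing notes name STAR 2.7.10b, MultiQC 1.7 and the mm39 build; the counter and annotation are not given in the sources used here. TPM keeps no read depth, so depth is unknown and no counting interval is given; each library listed 14812 to 16133 genes at 1 TPM or more. Every value column belonged to a sample (0 unused).

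Of 57010 gene IDs, 16756 had at least 1 TPM in at least 5 libraries. These were fitted as log2(TPM + 1) in limma 3.58.1 (R 4.3.3; lmFit, eBayes with trend) with 4 group means over all 22 libraries, and p-values were adjusted by Benjamini-Hochberg over all genes tested, with 0.05 as the threshold. Fold changes on this scale understate the change of low genes. Relations to Txnip used log2 deviations from group means and 100000 permutations within groups (Python 3.11.15, scipy 1.17.1), two-sided, adjusted over 7 genes. The scripts were tested on simulated data. Pairs of libraries of the same group correlated at 0.981 to 0.996 over genes and pairs of different groups at 0.966 to 0.991.

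The members and gene lists were chosen with earlier results of these data known. Named genes are the 8 members and Mafa, up to 4 genes per list and comparison with the largest difference past the threshold, and the 5 genes most and least like Txnip; Nnt, Ptprc and the insulin genes are named outside that rule, chosen after their values were seen. One gene that the rule names is not reported here. Alternatives were another pseudocount, filter, scaling or variance model, leaving out each library and, added after seeing the data, leaving out 3 libraries over 8% mitochondrial TPM.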

Additional observations from a re-analysis of the deposited data

Results flagged for a closer look

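C57 Het mouse 4 stood apart in Mlxipl, at 154.116 TPM, while the other 5 mice of that group had 92.1 to 112 TPM. The gap passed Dixon's limit for 6 values. This was tested in 36 combinations of gene and group, and chance alone marks about 1 in 20 groups. The mouse was still below every C57 WT mouse.

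The genotype difference of Txnip was higher on Mixed than on C57 by 1.5188 on the log2 scale, which is a description, since Txnip was chosen for it. The same gap was 1.81021 for Arrdc4 and 0.566867 for Txn1, and the interaction test passed for both. The immune marker sum had the same order of groups as Txnip within each background, and its part in these gaps was not tested.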

How the results depend on the processing

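TPM gives no counts, so low genes such as Pklr and Arrdc4 carry an unknown counting error, and with 5 or 6 mice a group a p above the threshold does not show that levels were alike. Library order and group cannot be told apart. No paired analysis was possible because the labels carry no replicate numbers shared between groups.

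Genes passing in the C57 comparison numbered 6362, and 3835 without the 3 libraries over 8% mitochondrial. For the interaction, 1233 genes passed as fitted, 714 with no filter on low values, 2628 with sample weights, 413 without the 3 libraries and 762 to 1767 when each library was left out in turn. Between backgrounds in WT, 1892 passed, against 1251 at a mean of at least 5 TPM, 831 when only the compared samples were fitted and 768 without the 3 libraries. In Het, 3428 passed, against 2223 at a mean of at least 5 TPM and 6572 with sample weights.

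Signs turned only for differences and relations that did not pass. With sample weights Arrdc4 on C57 was 0.18, Arrdc3 between backgrounds in WT 0.046 and the Pklr interaction -0.033. Without the 3 libraries Arrdc4 on C57 was 0.34, the Pklr interaction -0.034, Txn1 on C57 0.019 and the r of Mlxipl with Txnip -0.14. Pklr between backgrounds in WT was -0.018 with quantile normalization and -0.014 with totals that leave out 13 abundant genes. The r with Txnip became -0.060 for Mlxipl, -0.057 for Mlx and 0.013 for Txn1 with median-of-ratios scaling. It was -0.055 for Mlx and 0.0094 for Txn1 with quantile normalization, and -0.0099 for Mlxipl and 0.0072 for Txn1 with totals without abundant genes.

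Leaving out each library in turn, Arrdc4 on C57 ran from -0.30 to 0.13 and Txn1 on C57 from -0.077 to 0.058. The Arrdc3 interaction ran from -0.23 to 0.019 and that of Mafa from -0.17 to 0.054. Between backgrounds in WT, Arrdc3 ran from -0.15 to 0.10 and Pklr from -0.038 to 0.15. The r with Txnip ran from -0.18 to 0.18 for Mlxipl, from -0.13 to 0.15 for Mlx and from -0.20 to 0.19 for Txn1. Among the other values for single genes, 17 lost and 2 gained the threshold under the alternatives that kept every library or left out the 3 together. The other 441 were counted as kept. For tested genes and relations this meant the same sign and side of the threshold. For Txnip, which carries no test, it meant the same sign and a shift under its within-group SD. That held for Txnip on C57 at -0.22 (SE 0.15) with sample weights and -0.18 (SE 0.17) without the 3 libraries, against -0.52 (SE 0.19) as fitted. The cause of these changes was not tested.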
